A study of Mus musculus with 12 samples.

Results

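The cells described here are monocytes without C1q transcripts from mouse tumours, 4011 of the 116375 single cells that could be assigned to 1 tumour or 1 day 0 sample (3.45%). They were chosen by a gate on unique molecular identifiers (UMIs, counts of captured RNA molecules): at least 2 of Tyrobp, an adaptor of myeloid receptors, and at least 3 in all of Plac8, Ccr2 and Ly6c2, the genes that mark blood-type monocytes. The gate also asked for 0 UMIs of C1qa, C1qb and C1qc, of Flt3, of the CD3 chains and of Nkg7, and for at most 5 of S100a8 and S100a9. These conditions were aimed at C1q macrophages, dendritic cells, T cells, natural killer cells and neutrophils. The Flt3 condition left out 72 cells that met all others, and part of the gated cells still carried other dendritic genes. The 14 gate genes chose the cells, so their levels are given below as a description and support nothing.

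Classical monocytes leave the bone marrow with the help of the chemokine receptor CCR2, enter inflamed tissue and tumours from the blood, and there differentiate into macrophages or into antigen-presenting cells that resemble dendritic cells. On the way they lose Ly6C and gain complement C1q, lipid-handling genes or MHC class II. Interferon gamma from T cells and natural killer cells induces in them class II molecules, T-cell-attracting chemokines and GTPases of cell-autonomous defence. Macrophage migration inhibitory factor (MIF), a secreted cytokine, binds to CD74, CXCR2 and CXCR4, and CD74 is abundant on these cells.

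The study compared tumours of SCC35 cells in a work on how melanomas are rejected. Its groups were 2 lines named as controls for a Mif knockout (lines 15 and 18) and 2 Mif knockout (KO) lines (19 and 24), with the knockout carried by the injected line as the labels name it. Strain and age of the animals, the parent line's origin, how the knockout was made and whether each line is 1 clone are not stated in the labels. A hashtag, an antibody carrying a DNA barcode, marked the cells of each tumour, and the deposited hashtag sheet gives the line and a day (0, 6, 10 or 16) that the labels do not define further. Each of 4 libraries was made from 1 line, and the other 2 mixed lines. There were 18 control and 17 KO tumours at days 6, 10 and 16. Another 3 tumours, called WT in the sheet, belong to no labelled group and were not compared.

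Tumours held 653 to 7330 assigned cells and 2881771 to 41906675 UMIs. The 6 libraries gave 380 to 1008 gated monocytes each, and no pair of libraries shared more than 3 barcodes of gated cells. Day 0 gave 5769 cells in 7 samples, of which 1 passed the gate, in line 24. The largest control sample at day 0 had 0 of 719 cells, which allows a share of up to 0.417% by counting error alone. In cells with neither a Ptprc nor a Tyrobp UMI, the class that holds the injected line cells, Mif reached 1719, 2161 and 2745 CPM (counts scaled to the same total in every sample) in control tumours and 76.6, 401 and 1177 in KO tumours (lowest, median, highest). By line the medians were 2291 CPM (15), 2037 (18), 88.5 (19) and 475 (24), so no KO tumour reached a control tumour. The level also went with the library: line 19 was at 76.6 to 93.9 CPM in its own library and at 315 to 416 in the mixed one, and line 24 at 378 to 492 and at 1048 to 1177, a difference whose cause was not tested. Which part of the gene was changed is not given, and transcripts counted here need not make protein. Because line is nested in group, p-values measure the spread between tumours of these 4 lines and say nothing of other lines. A permutation over 4 line means cannot go below 0.333. In the single-line libraries the library and the line cannot be told apart, so values from the mixed libraries, or with library as a term, are given as well.

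A first check of the gated cells concerned their size. The median gated cell had 2006 UMIs against 3589 in C1q macrophages (cells with at least 3 C1q UMIs, 12635 in all), but 792 gated cells (19.7%) had more than 5000. The gate asks for a fixed number of UMIs, so the levels of its own genes fall with size by construction and are not given here. Of monocyte genes outside the gate, Chil3, a chitinase-like protein, stood at 514, 511 and 325 CPM in gated cells of up to 1000, 1000 to 2000 and 2000 to 5000 UMIs, at 69.0 CPM between 5000 and 10000 UMIs and at 42.1 CPM above that. Lyz2, which encodes lysozyme, was at 3303 CPM up to 1000 UMIs, at 5199 CPM at 1000 to 2000 UMIs and at 574 CPM above 10000 UMIs. The leukocyte gene Ptprc was at 474, 556 and 54.3 CPM in these classes.

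Genes of the line cells ran the other way. Sparc, a secreted matrix protein, was at 294, 250 and 325 CPM in the 3 smaller size classes, at 1603 and 1844 CPM in the 2 larger ones, and at 2079 CPM in the cells without Ptprc and Tyrobp. Spp1, encoding osteopontin, was at 1602 CPM up to 1000 UMIs, at 1319 CPM at 1000 to 2000 UMIs and at 7468 CPM above 10000. It was at 9141 CPM in the cells without Ptprc and Tyrobp. In the 31 tumours with at least 20 gated cells the large cells held 28.6% to 74.9% of all gated UMIs, with a median of 57.9%. Hashtags remove doublets between tumours, while 2 cells of 1 tumour in a droplet share a hashtag and remain here. No doublet caller was run, and the part of such droplets in any result was not tested. Gene comparisons are therefore given over all gated cells and again over the 3219 cells of up to 5000 UMIs, a choice made after seeing the data.

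**Figure D1:**
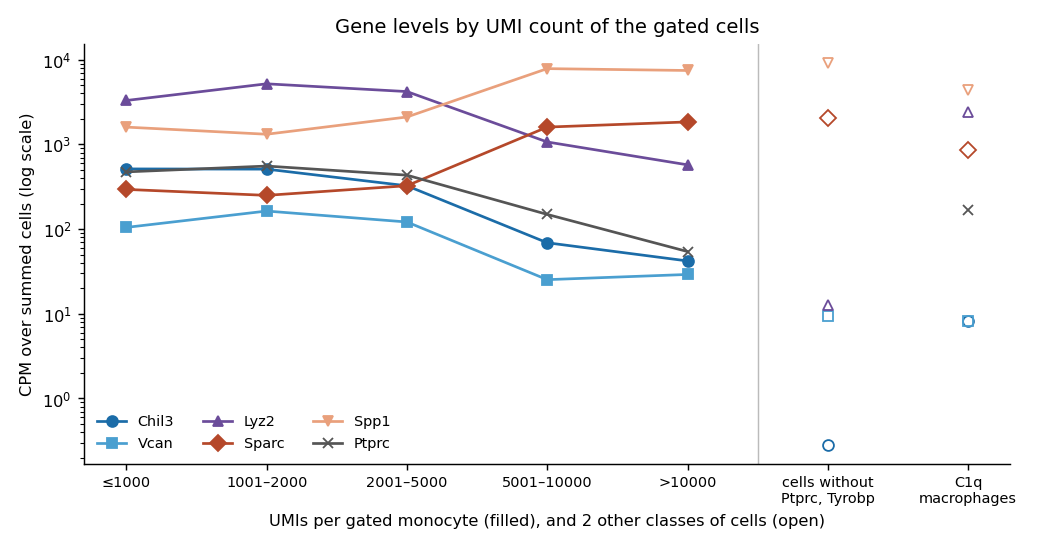
Levels of 6 genes in CPM (log axis) over the summed gated cells of 5 size classes by UMI count (filled points, joined by lines), and in cells without Ptprc and Tyrobp and in C1q macrophages (open points; Ptprc is at 0 by definition in the first). Chil3, Vcan, Lyz2 and Ptprc, none of them a gate gene, lie lower, and Sparc and Spp1 higher, in the 2 classes above 5000 UMIs.

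Up to 5000 UMIs, the gate genes are given as a description, since the gate itself asked for them. Plac8 stood at 2592 CPM over the summed cells against 198 in macrophages of that size, Ly6c2 at 2037 against 255, Ccr2 at 213 against 93.3 and Tyrobp at 3157 against 2693. Vcan, the matrix proteoglycan versican, was at 138 against 10.3 CPM, and the chitinase-like protein gene Chil3 at 409 against 17.3 CPM. Csf1r, the receptor of the growth factor of macrophages, was at 256 against 344 CPM.

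At the border of the gate, the 527 cells with a sum of exactly 3 for the marker trio had 100.9 CPM of Chil3 and 1194 of Sparc, and the 620 cells with a sum of 2, outside the gate, had 71.7 and 1307 CPM. Of the gated cells, 1490 had a sum of 10 or more. Cells with 1 or 2 C1q UMIs that met all other conditions numbered 953, with 226 CPM of Apoe and 34.5 of Pf4, against 202 and 30 in the gated cells. The 1917 cells with 3 or more C1q UMIs had 917 and 205 CPM of those macrophage genes.

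Compared with the C1q macrophages of the same tumours (31 tumours with at least 20 gated cells, a description since the gate separates these classes), the gated cells were high in genes of circulating monocytes. Chil3 had a mean of 245 CPM against 11.9 and a median log2 ratio of 3.65. Slpi, a protease inhibitor, had a median log2 ratio of 3.72, Hp, which encodes haptoglobin, 3.50, Ifitm6 3.43 and Vcan 2.62. Genes of resident or matured macrophages were low. The chemokine gene Ccl8 was at 17.5 CPM against 344 in macrophages (median log2 ratio -4.65), Pf4, which encodes platelet factor 4, had a ratio of -4.50, Ms4a7 of -3.61, the lipid carrier gene Apoe of -2.82 and the mannose receptor gene Mrc1 of -2.54. Those 5 were lower in the gated cells in 31 of 31 tumours.

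Markers of lymphocytes were low, and Cd3e, Cd3d, Cd3g and Nkg7 are at 0 by the gate. The summed level of 10 T-cell markers was 0 to 88.0 CPM per tumour, with a median of 28.1, that of 8 natural killer markers had a median of 6.38 CPM, that of 6 B-cell markers 6.67 CPM and that of 6 basophil and mast-cell markers 0 CPM. In C1q macrophages the medians were 18.0 CPM for the T-cell, 3.22 for the natural killer and 17.7 for the B-cell markers. Klrd1, a receptor chain of natural killer cells, and Cd7, a surface protein of lymphocytes, were among the 15 genes highest over macrophages, with median log2 ratios of 2.51 and 2.39. Genes of dendritic cells were not absent. Of the 4011 cells, 465 (11.6%) had a UMI of Siglech, Ccr9, Klk1, Ly6d, Ccr7, Cd209a, Xcr1, Clec9a or Zbtb46. Cd209a, a lectin of monocyte-derived dendritic cells, had a median log2 ratio to macrophages of 2.70, and 67 gated cells carried Siglech, a marker of plasmacytoid dendritic cells.

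The cells varied in MHC class II. To compare them at equal depth, the 2978 gated cells of 1000 to 5000 UMIs were thinned to 1000 UMIs each. They were divided by the remaining UMIs of the chain genes H2-Aa, H2-Ab1 and H2-Eb1 and of Cd74, called class II UMIs here. Then 608 cells (20.4%) had 0, 963 (32.3%) had 1 to 9 and 1407 (47.2%) had 10 or more. These ranges are cuts on a count, with 138 cells at 7 to 9 and 143 at 10 to 12, and whether distinct types lie within them was not tested. The dendritic gene Ccr7 was at 1.64, 8.31 and 117 CPM in these ranges. It was at 36.2 CPM in the cells with 7 to 9 class II UMIs and at 0 in those with 10 to 12. Chil3 was at 990 CPM in the cells without class II, 566 in the middle range and 145 in the high range. Hp followed with 396, 146 and 38.4 CPM, Vcan with 253, 190 and 56.1, and F13a1, a coagulation factor gene of monocytes, with 230, 133 and 40.5. Cxcl9, an interferon gamma-induced chemokine, ran the other way with 398, 725 and 905 CPM, as did Cd209a with 3.29, 29.1 and 74.6 CPM. Other interferon gamma targets did not rise with class II. Gbp2 was at 719, 699 and 491 CPM and Irf8 at 250, 258 and 235 CPM. Plac8 went from 3383 to 2446 CPM. The gate set a floor on its trio in every cell, so this change cannot be set against the others. The macrophage gene Apoe was at 490, 442 and 387 CPM and Ms4a7 at 92.1, 132 and 97.4 CPM.

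**Figure D2:**
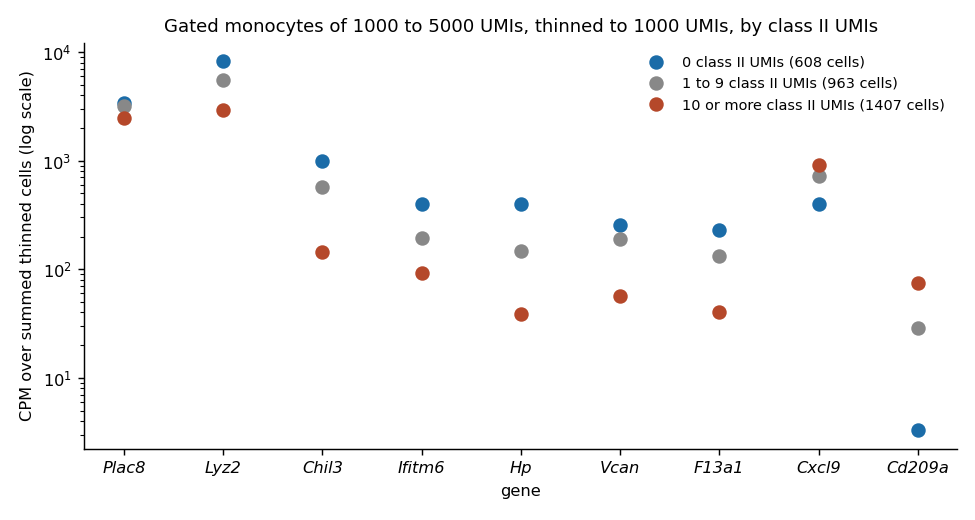
Gene levels in CPM (log axis) over the summed gated cells of 1000 to 5000 UMIs, thinned to 1000 UMIs, with 0, 1 to 9 or 10 and more class II UMIs. Chil3, Hp and Vcan lie lowest and Cd209a and Cxcl9 highest in the cells with 10 or more.

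Gated monocytes were more frequent at day 6 than at day 16. At day 6 they made up 5.19%, 7.68% and 15.6% of the cells in the 3 tumours of control line 15, 0.816%, 2.11% and 2.57% in control line 18, 5.37%, 8.33% and 11.6% in KO line 19, and 5.97% and 10.5% in the 2 tumours of KO line 24. At day 10 they made up 2.49%, 3.06% and 6.77% in line 15, 1.26%, 3.73% and 4.79% in line 18, 0.179%, 0.519% and 1.82% in line 19, and 1.52%, 2.97% and 3.33% in line 24. In line 18, 2 of the 3 tumours of day 10 lay above all those of day 6, and in line 24 all 3 of day 10 lay below those of day 16. At day 16 the tumours of line 24 held 3.67%, 5.10% and 7.80%, while those of the other 3 lines held 0.473% to 3.66%. The share was 2.42% ± 2.22 (SD, n = 12) at day 16 and 6.87% ± 4.44 (n = 11) at day 6, a difference of -4.46 percentage points (two-sided permutation test within lines, p = 0.00102). The difference kept its direction and its side of the threshold in all 9 alternatives run, with p from 0.00042 to 0.0224. Over cells thinned to 2000 UMIs, which leaves out shallower cells, it was -1.24 percentage points, and with gated cells above 5000 UMIs left out -3.77 (permutation p = 0.00055).

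KO and control tumours did not differ in this share beyond their spread. The means were 4.24% ± 3.56 (SD, n = 17) and 3.61% ± 3.63 (n = 18), and the two-sided permutation test within days gave p = 0.558. The difference of 0.622 percentage points turned to -0.995 without control line 18 and to -0.149 without KO line 24, and it was 2.24 without control line 15 (exact permutation p = 0.0547).

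The share of monocytes among monocytes plus C1q macrophages did differ. It was 31.0% ± 19.4 (n = 17) in KO and 18.3% ± 12.8 (n = 18) in control tumours, a difference of 12.7 percentage points (two-sided permutation test within days, p = 0.00536). At day 6 the 5 KO tumours lay between 48.8% and 67.7% and the 6 control tumours between 10.6% and 54.2%, overlapping in 1 control tumour of line 15. At day 10 the groups overlapped, with 4.24%, 18.7% and 29.5% in 6 KO and 8.10%, 17.8% and 31.9% in 6 control tumours (lowest, median, highest). At day 16 KO tumours ranged from 9.39% to 40.8% and control tumours from 3.15% to 12.2%. With monocytes and macrophages above 5000 UMIs left out the difference was 10.98 percentage points (permutation p = 0.031), and the day 16 ranges were 10.8% to 44.0% in KO and 2.96% to 22.3% in control tumours, with more overlap. Within the mixed libraries the difference was 15.4 percentage points (6 against 6 tumours, exact permutation p = 0.0926), within library and day there 13.6 (5 against 6 tumours, exact permutation p = 0.146), and without control line 18 it was 9.36 (exact permutation p = 0.0796), none of them past the threshold. Over 4 line means it was 12.9 percentage points (exact permutation p = 0.333, the smallest that 4 lines allow).

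**Figure D3:**
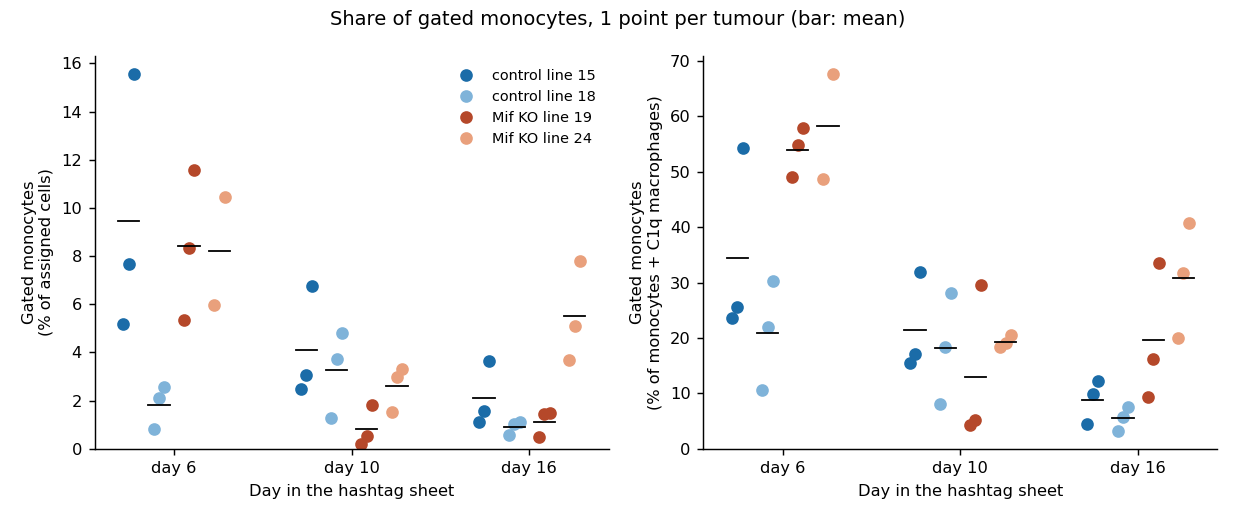
Gated monocytes of each tumour as a percentage of its assigned cells (left) and of its monocytes plus C1q macrophages (right), by day and line (points: tumours; bars: mean of the line at that day). The left shares are highest at day 6 except in line 18, and in the right panel the KO tumours of day 6 lie at 48.8% or more.

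Gene expression was compared on counts summed per tumour, over the 31 tumours with at least 20 gated cells (16 control, 15 KO) and over the 29 that kept 20 cells up to 5000 UMIs (16 control, 13 KO). The first question was what differs in monocytes of tumours grown from Mif KO lines. Monocytes of KO tumours had less RNA of pattern recognition and Fc receptors, of classical monocyte genes and of the macrophage genes Pf4 and Ms4a7. In the mixed libraries 58 of the 596 calls up to 5000 UMIs were kept. Clec4d, Clec4n, Pf4 and Ms4a7 held there, while Fcgr1, Trem1, Vcan and Chil3 lost the call. KO line 19 entered that fit with its day 6 tumour only, since its tumours of days 10 and 16 had 13 and 15 such cells. KO line 24 entered with its tumours of days 6, 10 and 16. Calls kept or lost there therefore rest on line 24 more than on line 19, and are not a check of each KO line. KO monocytes had more RNA of class II genes, a difference that did not hold within libraries, and of some interferon gamma-induced genes. Over all gated cells, edgeR's quasi-likelihood test called 558 of 4267 genes at an adjusted p under 0.05 (13.1%), 256 higher (6.0%) and 302 lower (7.08%). In cells of up to 5000 UMIs it called 596 of 1843 (32.3%), 272 higher (14.8%) and 324 lower (17.6%). Both sets shared 341 calls, all in the same direction. The median log2 fold change of all tested genes was 0.00 and 0.01.

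Genes of dissociation and stress and markers of other cells moved with the groups too. Of 18 stress genes tested, 2 rose and 4 fell over all cells, and 5 rose (Fosb, Egr1, Dnaja1, Hsp90aa1 and Hsp90ab1) and 7 fell (Ier3, Zfp36, Atf3, Fos, Dusp1, Jun and Junb) up to 5000 UMIs. Ier3, an immediate early gene, fell by 0.84 ± 0.15 up to 5000 UMIs (edgeR adjusted p = 6.9e-05), and by 0.56 ± 0.25 in the mixed libraries, where it did not pass the test (edgeR adjusted p = 0.298). The summed fibroblast and line-cell markers up to 5000 UMIs were at 78.9, 351 and 3156 CPM in control and at 423, 597 and 822 CPM in KO tumours, and over all cells at 485, 1359 and 3496 and at 877, 2098 and 2498 CPM, against 3376 in the cells without Ptprc and Tyrobp. The summed markers of conventional dendritic cells up to 5000 UMIs were at 0, 75 and 352 CPM in control and at 142, 238 and 810 CPM in KO tumours. Those of plasmacytoid dendritic cells, led by the interferon-induced gene Bst2, were at 527, 914 and 1333 CPM in control and at 882, 1279 and 2566 CPM in KO tumours up to 5000 UMIs, and over all cells at 555, 741 and 1276 and at 740, 1273 and 1943 CPM. Cells with a UMI of Siglech, Ccr9 or Klk1 were 1.25% of control and 2.70% of KO monocytes, and without cells that had a Siglech UMI 514 of the 558 calls over all cells were kept. The part of the stress genes and of the line-cell markers in the results between the groups was not tested.

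The number of calls moved with the lines and libraries that entered. With library as a term 18 genes were called over all cells and 47 up to 5000 UMIs, in the mixed libraries alone 33 and 68, and over 1 sum per line 2 and 46. Without control line 15 there were 297 calls and without KO line 24 218. Of the 596 genes called up to 5000 UMIs, 58 kept the call in the mixed libraries, whose tumours are part of the set that gave the calls. With library as a term the group difference comes from the tumours of the mixed libraries as well, since each other library holds 1 line. Of 52 named genes called over all cells, 9 kept the call with library as a term, and 16 of 47 tested did in the mixed libraries. The 2 groups shared a mixed library and a day at days 6 and 10 in both libraries, and at day 16 in 1 of them, where the KO tumour (line 19) had 17 gated cells and stayed out of the gene fits. A fit on the pairs of tumours of days 6 and 10, with library and day as a block, called 41 genes over all cells (4 pairs) and 91 up to 5000 UMIs (3 pairs), a design added after seeing the data. It is named below as the fit on pairs.

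Mif itself was measured in the monocytes of every tumour. Over all gated cells it stood at 786, 1382 and 1810 CPM (lowest, median, highest) in control tumours and at 264, 635 and 1481 in KO tumours, and fell by 0.93 ± 0.20 (SE) on the log2 scale (edgeR adjusted p = 0.0017). Up to 5000 UMIs the control tumours had 394, 746 and 1372 CPM and the KO tumours 384, 804 and 1195, and the groups overlapped throughout, with a log2 difference of -0.01 ± 0.17 (edgeR adjusted p = 0.97). Summed over cells without Ptprc and Tyrobp, Mif stood at 1241 CPM, and over gated cells it was higher above 5000 UMIs (1143 CPM) than below (815 CPM). Of the MIF receptors that were tested, Cd74 alone passed, higher in KO tumours up to 5000 UMIs (log2 0.63 ± 0.17, edgeR adjusted p = 0.0035). Cxcr2 was too low to be tested. The difference of Cd74 was 0.41 ± 0.24 in the mixed libraries (edgeR adjusted p = 0.46) and on pairs -0.12 ± 0.20 (edgeR adjusted p = 0.90), neither past the test. Ddt, the homologue of Mif, had a log2 difference of 0.44 ± 0.24 up to 5000 UMIs over the tumours of all libraries (edgeR adjusted p = 0.15).

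Receptors that sense antibodies and microbes were lower. Of 12 tested members of the list of pattern recognition and Fc receptors, 9 fell and none rose over all cells, and 10 fell up to 5000 UMIs (median log2 fold change -0.89 and -0.84). C5ar1, the receptor of the complement fragment C5a and no member of that list, was named for the size of its difference. In cells of up to 5000 UMIs it was at 106, 197 and 361 CPM (lowest, median, highest) in control tumours and at 26.4, 59.6 and 108 CPM in KO tumours. Only the highest KO tumour reached the lowest control tumour. By line the medians were 283 CPM (15), 191 (18), 69.0 (19) and 41.1 (24). C5ar1 fell by 1.93 ± 0.19 on the log2 scale (edgeR adjusted p = 6.6e-09), by 2.20 ± 0.29 in the mixed libraries (edgeR adjusted p = 0.00048) and by 2.05 ± 0.31 with library as a term.

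C3ar1, the receptor of C3a, moved with it, at 76.2, 144 and 289 CPM in control and 0, 45.0 and 77.1 CPM in KO tumours, and fell by 1.78 ± 0.20 on the log2 scale (edgeR adjusted p = 3e-08), and by 2.07 ± 0.30 in the mixed libraries (edgeR adjusted p = 0.0010). Clec4d and Clec4n, lectins that bind glycolipids and mannans, fell by 1.18 ± 0.14 and 0.90 ± 0.19 (edgeR), and both kept the call in the mixed libraries. Fcgr1, the high-affinity IgG receptor, was at 134, 430 and 773 CPM in control and 117, 182 and 321 in KO tumours. It fell by 1.08 ± 0.18 (edgeR adjusted p = 2.6e-05). In the mixed libraries the log2 difference was -0.59 ± 0.25 and the call was lost (edgeR adjusted p = 0.28). Trem1, which amplifies inflammatory signals, fell by 1.19 ± 0.21 and lost the call there as well.

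Classical monocyte genes lay lower in KO tumours too. Of 22 tested list members, gate genes left aside, 12 fell over all cells and 15 up to 5000 UMIs, and none rose (median log2 fold change -0.62 and -0.64). Vcan was at 99.8, 208 and 460 CPM in control and at 0, 66.5 and 133 CPM in KO tumours up to 5000 UMIs, with some overlap, and fell by 1.57 ± 0.23 (edgeR adjusted p = 4.9e-06). Its log2 difference in the mixed libraries was -1.12 ± 0.30 (edgeR adjusted p = 0.057), and on pairs it fell by 1.09 ± 0.32 (edgeR adjusted p = 0.044). Itgam, the integrin chain CD11b, was at 109, 348 and 584 CPM in control and 105, 142 and 238 in KO tumours, and fell by 1.08 ± 0.13 (edgeR adjusted p = 1.5e-07), and by as much in the mixed libraries (1.08 ± 0.20). Chil3, at 167, 522 and 1308 CPM in control and 54.0, 284 and 746 in KO tumours, fell by 1.02 ± 0.30 (edgeR adjusted p = 0.0081). In the mixed libraries Chil3 had a log2 difference of -0.55 ± 0.44 and did not pass the test (edgeR adjusted p = 0.62), nor did Hp and F13a1, and on pairs the difference of Chil3 was 0.10 ± 0.27 (edgeR adjusted p = 0.95).

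Of 13 tested genes of matrix remodelling, 8 fell up to 5000 UMIs (5 of 16 over all cells). Thbs1, which encodes thrombospondin 1, was at 1253, 2345 and 4259 CPM in control and 661, 1048 and 1396 in KO tumours, and fell by 1.17 ± 0.17 (edgeR adjusted p = 2.1e-06), with a log2 difference of -1.40 ± 0.25 in the mixed libraries. Tgfbi, a matrix protein induced by TGF-beta, fell by 1.18 ± 0.12 and Adam8, a membrane metalloprotease, by 1.5 ± 0.16, both calls that also held in the mixed libraries and with library as a term. Among glycolysis and hypoxia genes 10 of 18 fell and 1 rose up to 5000 UMIs (8 and 2 of 23 over all cells). Hilpda, a lipid droplet gene induced by low oxygen, fell by 1.30 ± 0.21 (edgeR adjusted p = 1.5e-05). In the mixed libraries its log2 difference was -0.83 ± 0.30 and the call was lost (edgeR adjusted p = 0.17), while on pairs it fell by 1.34 ± 0.28 (edgeR adjusted p = 0.0018).

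Genes of macrophage maturation were lower although the gate had already removed cells with C1q. Of 12 tested members 9 fell and 1 rose up to 5000 UMIs (8 and 2 of 15 over all cells). Pf4 was at 10.9, 105 and 273 CPM in control and at 0, 11.9 and 52.9 CPM in KO tumours, and fell by 3.23 ± 0.44 (edgeR adjusted p = 1.1e-06). Ms4a7, a membrane protein of tissue macrophages, was at 21.8, 139 and 335 CPM in control and 0, 26.4 and 71.0 in KO tumours, and fell by 2.33 ± 0.33 (edgeR adjusted p = 1.8e-06). Both held in the mixed libraries, with log2 differences of -2.86 ± 0.54 and -2.68 ± 0.40. Axl, a receptor for dying cells, was the member that rose (1.07 ± 0.20, edgeR adjusted p = 9.1e-05), and it lost the call in the mixed libraries (0.82 ± 0.29, edgeR adjusted p = 0.17). The summed level of 9 macrophage markers moved with these genes, at 351, 795 and 1481 CPM in control and 213, 405 and 886 in KO tumours up to 5000 UMIs (a median of 8700 in macrophages of all sizes). C1qa, C1qb and C1qc are at 0 by the gate. The share of monocytes among monocytes plus macrophages also differed between the groups, and the part of RNA from macrophages in these results was not tested.

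Of 13 tested genes of monocyte chemokines and receptors, 7 fell and 2 rose up to 5000 UMIs (5 and 1 over all cells). Ccl9, a CCR1 ligand, fell by 1.29 ± 0.18 (edgeR adjusted p = 1.1e-06) and by 1.51 ± 0.24 in the mixed libraries. Ccr7, the receptor that guides dendritic cells to lymph nodes, was at 0, 19.5 and 142 CPM in control and 33.3, 98.1 and 450 in KO tumours and rose by 1.91 ± 0.46 (edgeR adjusted p = 0.0015). The log2 difference of Ccr7 in the mixed libraries was 1.52 ± 0.62 and the call was lost (edgeR adjusted p = 0.25). Cells with a UMI of the 9 dendritic genes were 7.30% of control and 12.7% of KO monocytes up to 5000 UMIs. Per tumour, over all 18 control and 17 KO tumours, they were 0% to 17.5% (median 6.86%) and 0% to 33.3% (median 16.7%). Both KO extremes were tumours outside the gene fits, with 0 of 3 and 5 of 15 cells. Among the KO tumours in the fits they ran from 17 of 209 cells to 10 of 34, while both control extremes were tumours in the fits. Leaving out the cells with a UMI of the 9 dendritic genes kept 480 of the 596 calls.

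Ccnd2, which encodes cyclin D2 of the G1 phase, separated the groups fully. In cells of up to 5000 UMIs it was at 13.9, 39.6 and 61.0 CPM in the 16 control tumours and at 71.1, 142 and 184 CPM in the 13 KO tumours. It rose by 1.68 ± 0.18 (edgeR adjusted p = 1.3e-08), by 1.54 ± 0.35 in the mixed libraries (edgeR adjusted p = 0.024) and by 1.64 ± 0.20 over 1 sum per line (edgeR adjusted p = 0.016). Genes of the cell cycle list had 0 of 16 called over all cells, and 1 of 3 up to 5000 UMIs, the histone gene H2afz, which rose and lost the call in the mixed libraries (edgeR adjusted p = 0.24). Bcl2a1b, a survival gene with near-identical copies that the counting may have split, was at 125, 199 and 390 CPM in control and 286, 555 and 781 in KO tumours and rose by 1.17 ± 0.17 (edgeR adjusted p = 5.3e-06). In the mixed libraries it rose by 1.11 ± 0.24 (edgeR adjusted p = 0.020), while on pairs and with library as a term the call was lost (edgeR adjusted p = 0.15 and 0.18).

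**Figure D4:**
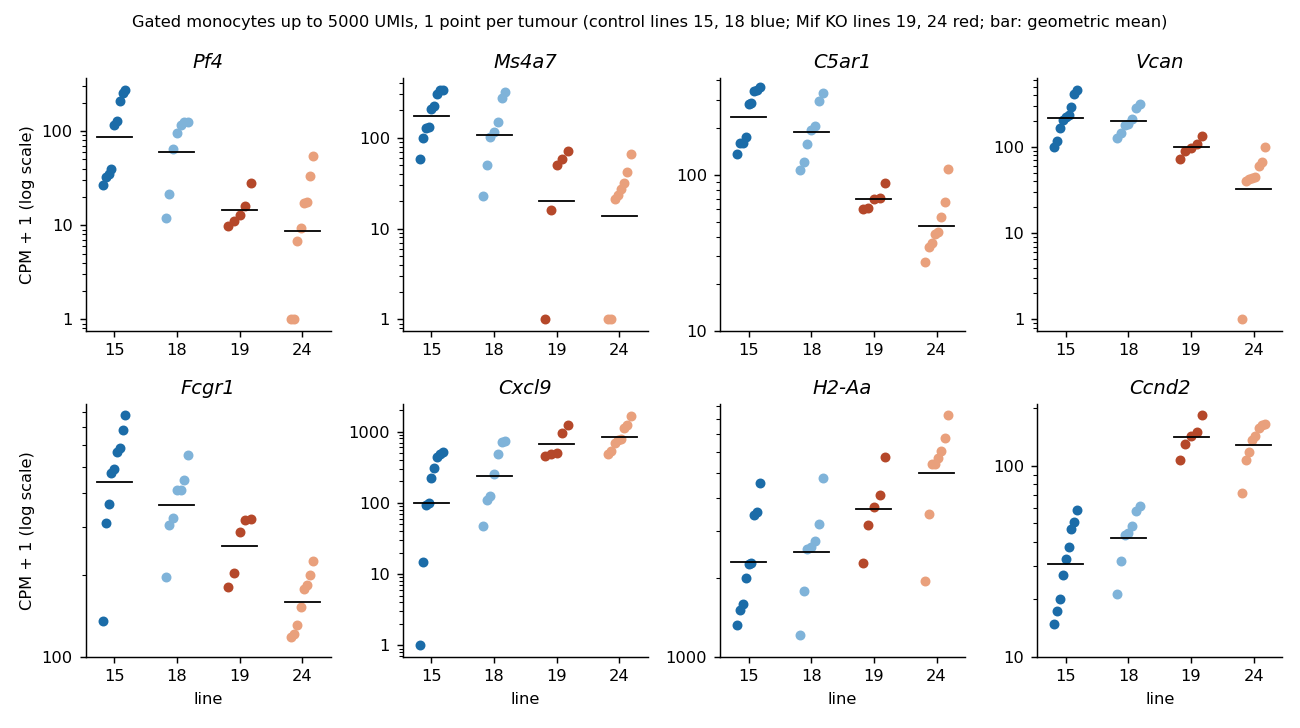
CPM plus 1 (log axis) of 8 genes in gated monocytes up to 5000 UMIs, by line (points: tumours; bars: geometric means). Pf4, Ms4a7, C5ar1, Vcan and Fcgr1 lie lower in KO lines 19 and 24, Ccnd2 does not overlap between the groups, and H2-Aa overlaps between all 4 lines.

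Class II and interferon gamma-induced genes lay higher in KO tumours. Promoters of 3 class II genes are printed because class II genes move together through a shared promoter module, the X box and the inverted CCAAT (Y) box, which the RFX and NF-Y factors bind. The 120 bases before the start are from RefSeq, build GRCm38.p6, with matches of the X-box core ACNGATG and of CCAAT, searched on both strands, in capitals (ATTGG is CCAAT on the other strand). H2-Eb1 is at chr17:34305747-34305866 on the plus strand, H2-DMb1 at chr17:34153071-34153190 on the plus strand and H2-Aa at chr17:34287824-34287943 on the minus strand.
H2-Eb1: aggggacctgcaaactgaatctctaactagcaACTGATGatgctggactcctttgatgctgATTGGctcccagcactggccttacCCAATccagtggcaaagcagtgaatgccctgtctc
H2-DMb1: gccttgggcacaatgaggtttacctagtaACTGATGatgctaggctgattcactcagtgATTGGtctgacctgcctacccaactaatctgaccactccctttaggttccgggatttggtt
H2-Aa: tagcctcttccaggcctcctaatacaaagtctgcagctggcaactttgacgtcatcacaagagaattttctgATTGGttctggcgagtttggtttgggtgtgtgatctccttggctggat
The X-box core begins at base -88 from the start in H2-Eb1 and at -91 in H2-DMb1. The CCAAT that follows it begins at -59 and -61, and that of H2-Aa at -48. In H2-Aa the only match of the core lies outside the printed window, at -232, and on the other strand. That match is not shown to be the X box of H2-Aa. Among 32851 promoters of 300 bases (250 before to 50 after the start) 9.85% held the core and 37.4% held CCAAT. Of 8 class II list members in the table, 6 held the core and 6 held CCAAT. These are letters in a window, not sites shown to be bound.

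The genes under these promoters varied widely between tumours. H2-Aa, the class II alpha chain, was at 1212, 2419 and 4761 CPM in control and 1938, 5380 and 8258 CPM in KO tumours up to 5000 UMIs, and rose by 0.84 ± 0.20 (edgeR adjusted p = 0.0016). H2-Eb1, a beta chain, rose by 0.93 ± 0.22, H2-Ab1 by 0.89 ± 0.23, and H2-DMb1, of the peptide-loading pair, by 0.41 ± 0.16 (edgeR adjusted p = 0.041). In all 7 of 10 tested class II list members rose up to 5000 UMIs, and 3 of 12 over all cells. The call did not hold within libraries. In the mixed libraries H2-Aa was higher by 0.48 ± 0.31 (edgeR adjusted p = 0.53), and with library as a term by 0.14 ± 0.34 (edgeR adjusted p = 0.91). On pairs the sign turned, at -0.32 ± 0.22 for H2-Aa (edgeR adjusted p = 0.64) and -0.39 ± 0.23 for H2-Eb1 (edgeR adjusted p = 0.53). H2-Eb1, H2-Ab1 and H2-DMb1 lost the call in the mixed libraries too, with log2 differences of 0.53 ± 0.36, 0.75 ± 0.37 and 0.07 ± 0.23 (edgeR adjusted p = 0.54, 0.38 and 0.94). By line the median of H2-Aa was 2246 CPM (15), 2614 (18), 3706 (19) and 5550 (24). The share of monocytes in the high class II range followed, with medians of 28.6% (15), 46.3% (18), 46.0% (19) and 61.3% (24), with lines 18 and 19 next to each other. The cells without class II were 16.7% to 52.0% in control and 5.36% to 28.2% in KO tumours.

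Interferon gamma targets were called higher for 6 of 18 and lower for 1 over all cells, and for 5 and 1 of 14 up to 5000 UMIs (median log2 fold change 0.31 and 0.29). Promoters of 3 members, windows of 120 bases as above, are printed because they hold the interferon element core GAAANNGAA (TTCNNTTTC on the other strand), in capitals. Gbp2 is at chr3:142620543-142620662 on the plus strand, Gbp3 at chr3:142559924-142560043 on the plus strand and Irgm1 at chr11:48871421-48871540 on the minus strand.
Gbp2: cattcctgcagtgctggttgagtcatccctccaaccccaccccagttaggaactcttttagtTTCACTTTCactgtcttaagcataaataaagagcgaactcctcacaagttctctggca
Gbp3: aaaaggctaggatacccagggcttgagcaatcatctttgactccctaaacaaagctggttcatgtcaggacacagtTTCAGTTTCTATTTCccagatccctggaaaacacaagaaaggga
Irgm1: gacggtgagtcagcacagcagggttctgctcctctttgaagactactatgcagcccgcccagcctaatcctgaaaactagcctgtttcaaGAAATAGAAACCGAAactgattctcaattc
The core was found in 8.56% of all promoters, and in 13 of the 18 list members in the table. It begins at base -58 from the start in Gbp2. In Gbp3 and in Irgm1 a pair of matches overlaps, beginning at -44 and -38 and at -30 and -24.

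Irgm1, a GTPase of the interferon-inducible family, was at 19.2, 67.7 and 158 CPM in control and 30, 117 and 272 CPM in KO tumours up to 5000 UMIs. The groups overlapped, with the KO tumours higher at the median. It rose by 0.77 ± 0.21 (edgeR adjusted p = 0.0046), by 1.60 ± 0.34 in the mixed libraries (edgeR adjusted p = 0.018) and by 1.5 ± 0.37 with library as a term. The guanylate-binding protein genes Gbp2 and Gbp3 rose by 0.72 ± 0.26 and 0.73 ± 0.21, and in the mixed libraries Gbp2 was 1.42 ± 0.30 higher (edgeR adjusted p = 0.016), while Gbp3 lost the call (edgeR adjusted p = 0.068). Cxcl9, which draws CXCR3-bearing T cells, was at 0, 238 and 732 CPM in control and 453, 769 and 1661 CPM in KO tumours. It rose by 1.47 ± 0.31 (edgeR adjusted p = 0.00047), and in the mixed libraries was 1.80 ± 0.52 higher without passing the test (edgeR adjusted p = 0.078), while on pairs it rose by 1.09 ± 0.26 (edgeR adjusted p = 0.0058). Irf8, a transcription factor of the monocyte and dendritic lineages, rose by 0.68 ± 0.21, lost the call in the mixed libraries (0.75 ± 0.30, edgeR adjusted p = 0.24) and rose on pairs by 1.14 ± 0.30 (edgeR adjusted p = 0.017). The wider interferon response list moved little, with 2 of 24 genes called, Bst2 and Ifi205, both higher.

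**Figure D5:**
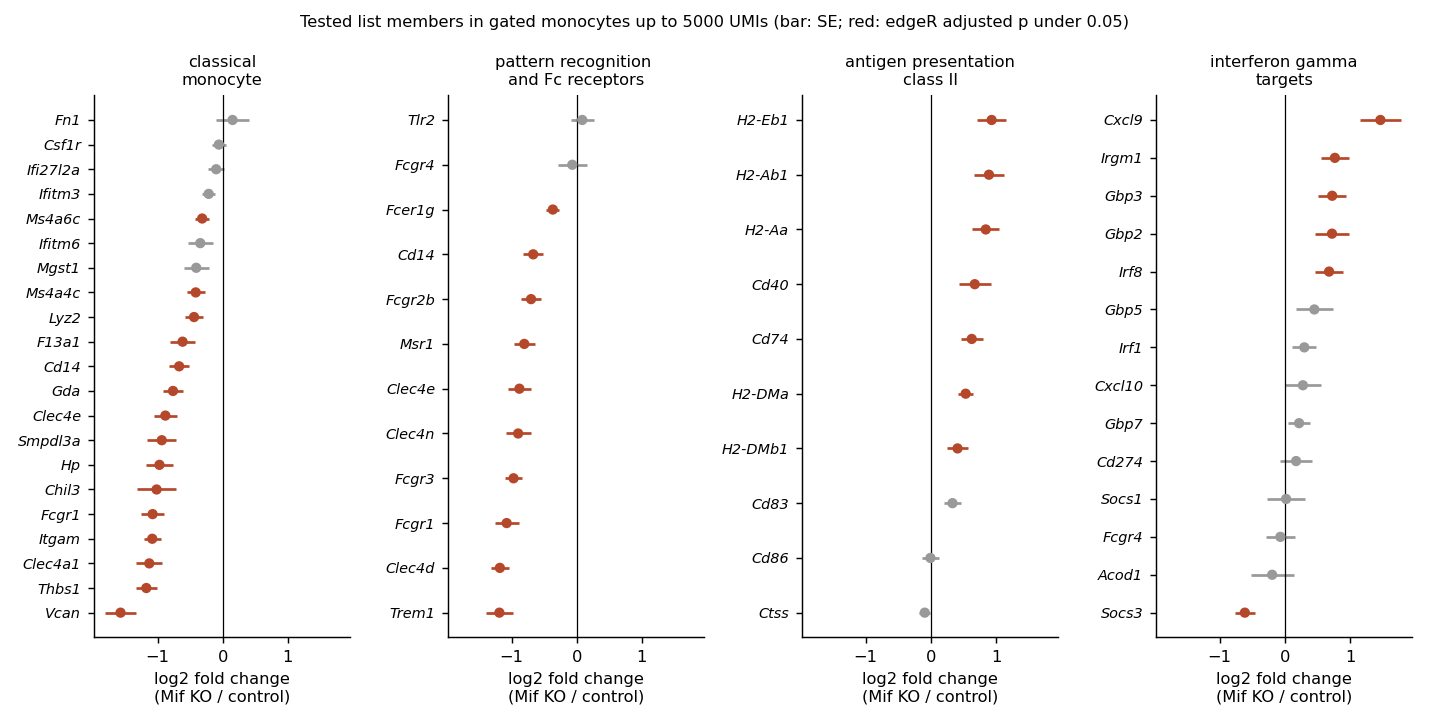
Log2 fold changes (KO over control, bars: SE) of tested members of 4 gene lists in gated monocytes up to 5000 UMIs, with genes past the test in red. All called genes of the first 2 lists lie below 0 and all called class II genes above 0.

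Part of this difference was not shared with the macrophages beside them. A fit over both classes, with the tumour as a block, tested whether the KO difference in monocytes differed from that in C1q macrophages, and called 208 of 10252 genes (2.03%), 30 with a more positive (0.293%) and 178 with a more negative difference in monocytes (1.74%). Up to 5000 UMIs it called 205 of 7373 (2.78%), 70 more positive (0.949%) and 135 more negative (1.83%), and 125 calls were common to both. Thbs1 led among the abundant genes, with an interaction of -1.57 ± 0.19 on the log2 scale over all cells and -1.76 ± 0.15 up to 5000 UMIs (edgeR adjusted p = 7.4e-15). In macrophages Thbs1 was at 164, 429 and 732 CPM in control and 384, 643 and 828 in KO tumours, while in monocytes it fell.

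Il1b, an inflammatory cytokine, did not pass the test in monocytes (3222 against 2252 CPM at the median, control and KO, up to 5000 UMIs), but in macrophages stood at 1301 and 2402 CPM. Its interaction was -1.17 ± 0.12 (edgeR adjusted p = 2.7e-11). Nlrp3, the inflammasome sensor, had an interaction of -0.94 ± 0.16 and Ptgs2, a prostaglandin synthase, of -1.39 ± 0.17 (edgeR). In all 8 of 22 inflammatory genes had a more negative difference in monocytes over all cells, and 7 up to 5000 UMIs. Pf4 and Ms4a7 had interactions of -1.87 ± 0.35 and -1.31 ± 0.24 up to 5000 UMIs. Pf4 was at 1675 CPM in control and 674 in KO macrophages at the median. H2-Aa was at 1906 CPM in control and 4169 in KO macrophages at the median, a difference not tested in macrophages alone. The interaction of class II genes was called negative for 7 of 14 over all cells and 3 of 14 up to 5000 UMIs. Cxcl9 gave none (-0.11 ± 0.20, edgeR adjusted p = 0.90).

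Genes on the positive side were fewer. Gpr183, an oxysterol receptor that guides cell migration, had an interaction of 1.23 ± 0.27 up to 5000 UMIs. Its median was 38.8 CPM in control and 45.3 in KO monocytes, and 74.8 and 29.0 in macrophages. Cd37, a tetraspanin, had 1.33 ± 0.30 and Ddt 1.06 ± 0.22 (edgeR adjusted p = 0.0014). The count of calls rested on single lines: without KO line 24 it was 25, and without control line 15 it was 59.

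Over time a small set of genes changed in the monocytes between day 6 and the later days. Most of these calls were higher over all cells, while up to 5000 UMIs they went both ways. From day 6 to day 16 the test, with line as a term, called 31 of 4740 genes over all cells (0.654%), 26 higher (0.549%) and 5 lower (0.105%), and 101 of 2140 up to 5000 UMIs (4.72%), 54 higher (2.52%) and 47 lower (2.20%). Of those calls 25 were shared. From day 6 to day 10 it called 62 over all cells (1.31%), 60 higher (1.27%) and 2 lower (0.0422%), and 67 up to 5000 UMIs (3.13%), 38 higher (1.78%) and 29 lower (1.36%). Between day 10 and day 16 edgeR called 0 of 4740 and 0 of 2140 genes, with 245 and 150 at an unadjusted p under 0.05. Control line 15 carried much of the later count: without it 4 genes were called over all cells and 3 up to 5000 UMIs.

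Pilra, an inhibitory receptor of myeloid cells, was at 18.2, 38.1 and 68.0 CPM at day 6, at 21.3, 84.8 and 207 at day 10 and at 82.8, 96.0 and 237 at day 16 (lowest, median, highest, up to 5000 UMIs). No tumour of day 16 was as low as any of day 6. It rose by 1.67 ± 0.24 from day 6 to day 16 (edgeR adjusted p = 0.00015) and by 1.80 ± 0.21 over all cells. Clec4n rose by 1.10 ± 0.26 (edgeR adjusted p = 0.010), and the Fc receptor genes Fcgr2b and Fcgr3 by 0.79 ± 0.20 and 0.53 ± 0.16. Nr4a1, a nuclear receptor of the non-classical monocyte, was at 184, 312 and 480 CPM at the medians of days 6, 10 and 16 and rose by 1.16 ± 0.22 (edgeR adjusted p = 0.0018). Nr4a1 is also an early-response gene. Of 18 genes of dissociation and stress 6 rose up to 5000 UMIs, among them Atf3 (0.95 ± 0.22), Fos (0.72 ± 0.15) and Dusp1 (0.73 ± 0.15), and 2 over all cells. Handling of the tumours was not recorded by day in the sources used here, and its part was not tested.

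Classical monocyte genes rose from day 6 to day 10, 7 of 22 over all cells and 8 of 22 up to 5000 UMIs. No fit leaving out a line was run for these days, so whether the rises rest on a single line was not tested. The cells without class II had the most Hp. In line 15 these cells were 17.1% to 34.4% of the thinned monocytes at day 6 and 46.9% to 52% at day 10. In line 24 they were 14.3% and 22.5% at day 6 and 5.88% to 12.9% at day 10. In the other lines the days overlapped. Hp was at 67.6, 213 and 150 CPM at the medians of the 3 days and rose by 1.57 ± 0.23 to day 10 (edgeR adjusted p = 0.00011) and by 0.97 ± 0.24 to day 16. Lyz2 rose by 0.81 ± 0.16 to day 10, Cd14, the co-receptor for endotoxin, by 0.62 ± 0.18 and Itgam by 0.69 ± 0.16. Tnf, which encodes tumour necrosis factor, was at 161, 91.1 and 61.9 CPM and fell by 1.0 ± 0.29 to day 10 (edgeR adjusted p = 0.045), a call made up to 5000 UMIs only.

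Of 16 tested interferon gamma targets 4 fell from day 6 to day 16 up to 5000 UMIs, and 0 fell over all cells. Gbp2 was at 541, 225 and 210 CPM at the medians of the 3 days and fell by 1.21 ± 0.33 (edgeR adjusted p = 0.030), Gbp3 by 0.96 ± 0.27, Irgm1 by 0.88 ± 0.27 and Serpina3g, a protease inhibitor, by 1.32 ± 0.35. Over all cells Gbp2 had a log2 difference of -1.17 ± 0.30 and an edgeR adjusted p of 0.054. Mdm2, the regulator of p53, and Cflar, an inhibitor of caspase 8, fell in both sets, by 1.18 ± 0.24 and 1.01 ± 0.19 up to 5000 UMIs. H2-Aa did not pass the test over time (log2 -0.02 ± 0.25 from day 6 to day 16, edgeR adjusted p = 0.99).

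Gzmc, a granzyme of cytotoxic lymphocytes, had the largest rise over all cells from day 6 to day 16 (8.18 ± 1.11, edgeR adjusted p = 3.1e-05). It was at 0, 43.1 and 1311 CPM at day 16 and at most 7.40 CPM at day 6. Up to 5000 UMIs it was at 0, 2.29 and 142 CPM at day 16 and was too low to be tested, and Nkg7 is at 0 by the gate. Siglech rose by 2.38 ± 0.63 up to 5000 UMIs (edgeR adjusted p = 0.027), from a median of 13 to 106 CPM. Few cells carried it, 0 to 10 gated cells of a tumour at day 6 and 0 to 5 at day 16 having a Siglech UMI.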

How the data were processed

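Single-cell RNA of dissociated, live-sorted tumour cells was read with a 10x 5′ kit and TotalSeq-C hashtags, per the labels' protocols. The authors used Cell Ranger 6.0.0 and build mm10, per the submitters' processing notes, and deposited raw UMI counts per gene and barcode with a sheet that ties hashtags to lines and days. Of 47 hashtags in the sheet, 45 had cells.

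Barcodes were kept with at least 300 genes, at most 15% mitochondrial UMIs, and a first hashtag of at least 20 counts and 3 times the second. Gated counts were summed per tumour (at least 20 cells) and tested with edgeR 4.0.16 (TMM, quasi-likelihood, Benjamini-Hochberg threshold 0.05) under R 4.3.3. The group test had day, the day test line and the interaction test tumour as further terms. DESeq2 1.42.0 served as an alternative. Lines are the labelled replicates of a group, share no number between groups, and tumours of 1 line share it. Pairs come from the sheet's library and day (mixed libraries, days 6 and 10; the share test also had the day 16 tumours of 1 mixed library), and their deviations from the group means correlated at -0.011 to 0.070 across genes. Counts of 4267 genes were simulated with 200 changed, the least abundant genes being left unchanged, and 4118 were tested. The group test recovered 96% of 2-fold and 100% of 4-fold changes. The simulated tumours held no differences between lines or libraries. This recovery therefore does not speak for a group test in which line is nested in group. Shares were tested by permutation (100000 resamples, or exact). Intervals and limits of shares cover counting error only. The SE of an edgeR log2 difference is its absolute size divided by the square root of the test's F statistic. That SE takes in the spread between tumours.

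Named genes were Mif, the 8 largest called changes per direction with a log2 CPM of at least 5 (for the KO comparison with both KO lines on 1 side of both control lines), and called list members with a log2 CPM of at least 4, shown with 2 to 4 examples per list. Within that rule some examples were chosen after their values were seen. The gate, the gene lists and the tests were chosen with earlier results of these data known. The limit of 5000 UMIs and its combinations with other alternatives were added after seeing the data. The class II and interferon motifs searched in promoters were shortened after longer forms had been searched. A member of the classical monocyte list is counted in its totals and is not reported here by name or in the plots.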

Additional observations from a re-analysis of the deposited data

Results flagged for a closer look

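In the 6 control tumours of day 16, gated monocytes made up 3.66% of the cells in tumour A of line 15, while the next highest tumour had 1.57%. The gap was 0.672 of the range of the 6 tumours, and chance sets apart about 1 group in 20 by this measure. For 208 genes the KO difference over all gated cells differed between monocytes and C1q macrophages by the edgeR interaction test, with Thbs1 and Il1b at the lowest adjusted p up to 5000 UMIs.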

How the results depend on the processing

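The number of genes called between KO and control monocytes (558) moved most. It was 18 with library as a term, 33 in the mixed libraries and 2 over 1 sum per line. Without cells above 5000 UMIs these became 47, 68 and 46. With library and day as a replicate block, on tumours of the mixed libraries, there were 41 calls, and 91 without cells above 5000 UMIs. Leaving out 1 line gave 218 to 735 calls, and 188 to 845 up to 5000 UMIs (299 without control line 15). For day 16 against day 6 (31), DESeq2 gave 59 calls, no filter on low counts 204 and a gate read on cells thinned to 2000 UMIs 4. Without cells above 5000 UMIs there were 101 calls, 157 when cells with dendritic UMIs were also left out and 117 with library as a term. Leaving out 1 line gave 4 to 39, and up to 5000 UMIs 3 to 104 (58 without control line 18, 83 without KO line 19). For the interaction (208) it gave 25 to 266.

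The KO difference in the share of assigned cells ran from -0.995 to 2.24 percentage points without 1 line. That in the share of monocytes plus macrophages ran from 9.36 to 16.1, short of the threshold without control line 18 (9.36) and past it without each of the other 3. It was 15.4 in the mixed libraries, 13.6 there with the replicate block and 12.9 over line means, and these 3 values did not pass.

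Of 1222 checks on 52 named genes of the KO comparison, 816 kept direction and side of the threshold, 396 lost the call and 10 changed sign. With the replicate block the log2 difference of Chil3 was 0.025, and without cells above 5000 UMIs it was 0.097, that of H2-Aa -0.32 and that of H2-Eb1 -0.39. Without cells above 5000 UMIs and KO line 24 the log2 difference was 0.027 for Ccl12 and 0.16 for Ccl3. For Mif it was 0.13 with library as a term, 0.26 in the mixed libraries, 0.21 without control line 18 and 0.20 without KO line 19, each up to 5000 UMIs. Over days Mif gave 0.14 with library as a term, and up to 5000 UMIs 0.010 with library and 0.24 without control line 15. Its interaction was 0.15 up to 5000 UMIs. The cause of these changes was not tested. The main fits used as few as 21 cells of a tumour, and the alternative that asked for at least 10 cells used as few as 13.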

Other observations

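The 3 tumours called WT in the hashtag sheet, which the labels put in no group, held 279 gated monocytes. Their share of assigned cells was 6.60% at day 6, 1.36% at day 10 and 0.971% at day 16, and their share of monocytes plus C1q macrophages 39.8%, 10.3% and 7.56%. The only gated cell of day 0 was 1 of 2135 cells (0.0468%) in a sample of KO line 24.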
